A study of Mus musculus with 95 samples.

Results

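The 200 probes described here mark the cortex of the normal mouse thymus under both the epithelial and the T cell mask, and they are 200 of the 20175 probe IDs of a whole-transcriptome panel. They were selected on measured levels of control thymus, as log2(CPM + 1) of counts pooled over all segments of a class, where CPM is the count scaled to the total of its library. A probe qualified when its level varied by at least 0.5 over the 5 control classes, differed by less than 0.3 between cortical epithelium and cortical T cells, was at least 0.5 higher in cortical than in medullary epithelium, and in B cell segments did not exceed the higher of the cortical values. Of the 20175 probes, 4030 met the first condition, 3506 of these also the second, 553 also the third and 512 all 4. The 200 with the largest smaller value of the epithelial and the T cell zone difference were kept, ranked by that value. The remaining qualifying probes were not followed. No table used here pairs the probe IDs with genes, so the probes are described by their levels, and no tissue marker could be looked up.

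The thymus has an outer cortex and an inner medulla. In the cortex, immature thymocytes proliferate, rearrange their antigen receptor genes and undergo positive selection on cortical epithelium. Surviving cells move to the medulla, where negative selection and final maturation take place, and thymic B cells are found mainly there. Cortical epithelial cells enclose thymocytes in their processes, so a mask drawn on cytokeratin and one drawn on CD3 in the same cortical field can each take in RNA of the other cell type. Many thymomas keep a population of immature T cells among the neoplastic epithelium.

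Fixed, embedded thymus of 8 mice was profiled with the GeoMx Digital Spatial Profiler, which releases probe barcodes from the area under a fluorescent mask. The 4 thymoma mice, 1042, 1044, 1082 and 1157, carried the genotype Gtf2ifl/wt Foxn1-Cre/wt and are described as knock-in mice for the L424H change of Gtf2i, a general transcription factor gene. Their Cre is placed at Foxn1, a gene active in thymic epithelium. The control mice had no Cre: mice 1057 and 1059 were Gtf2ifl/fl, and mice 1172 and 1143 were Gtf2ifl/wt. Ages were not given in the labels. Of the 95 segments, 13 were thymoma epithelium (pan-cytokeratin), 12 thymoma T cells (CD3) and 12 thymoma B cells (B220), each from 4 mice. Control cortical epithelium and cortical T cells had 13 segments each from 4 mice, medullary epithelium and medullary T cells 11 each from 3 mice, and control B cells 10 from 4 mice. Mouse 1059 gave no medullary segment, and the thymoma segments carry no zone label.

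Segments held 8919 to 12551297 counts, and their sums per mouse and class, the libraries of all tests, 63805 to 36879809. Control mouse 1143 was shallow throughout: its libraries had 45.4 to 77.4 counts for each nucleus, and those of the remaining mice 544 to 3160. All 200 probes had a count in 82 of the 95 segments, and in every segment outside mouse 1143. Each of the 4 slides carried 2 mice of 1 genotype, so slide and group cannot be told apart. Which IDs are negative controls is not known here, so background was neither subtracted nor measured, and low levels and shares may include it. Its part in the differences was not tested. A segment is a bulk sample, in which fewer cells of a type and less RNA per cell cannot be told apart.

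In the control segments that chose them, the probes were 1.06 higher in cortical than in medullary epithelium at the median (log2, range 0.67 to 3.16) and 0.96 higher in cortical than in medullary T cells (0.67 to 2.63). These differences are what the selection required and carry no test. The smaller zone difference was 2.63 for the first probe, 2.60 for the second and 2.26 for the third. At the boundary, ranks 199 and 200 had 0.674 and 0.672, and the first probes outside, ranks 201 and 202, had 0.672 and 0.671. The boundary therefore falls within a continuous run of values. Between the masks of the control cortex, epithelium minus T cells lay between -0.25 and 0.18, with a median of -0.04.

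The 200 were mostly abundant probes. Their median level, as log2(CPM + 1) of pooled counts, was 7.08 in control cortical epithelium and 7.11 in control cortical T cells, where the median of all probes was 5.00 and 5.04. In thymoma, 196 of the 200 lay above the panel median of the thymoma classes, and their median percentile was 94.7, the lowest being 22.8. Since they were abundant, the set of all probes whose mean level exceeds the median, here called the upper part, serves as a second background beside the edgeR comparisons and the readings between control genotypes. It is not matched to the members by level, as their median percentile of 94.7 lies well inside it.

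The zone difference was also read in control mice that had no part in a choice. Probes chosen again without mouse 1057 were higher in cortex than in medulla in that mouse for 199 of 200 in epithelium (median 0.92) and 199 of 200 in T cells (median 0.76). Without mouse 1172, the same reading gave 200 of 200 in each, with medians of 1.09 and 1.01. In shallow mouse 1143 it gave 153 of 200 in epithelium (median 0.70) and 168 in T cells (median 1.03). Among all probes, 31.6% to 44.2% were higher in cortex in these readings. The re-chosen lists shared 158, 180 and 196 probes with the 200. The zone pattern thus appeared in each held-out mouse, least often in the shallowest.

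Together the 200 probes took 7.20% ± 1.54 (SD, n = 4 mice) of the counts of thymoma T cell libraries, 5.49% ± 1.21 of thymoma epithelium and 2.07% ± 0.37 of thymoma B cells. Under the T cell mask the share was 8.80% in mouse 1042, 5.32% in mouse 1044, 6.67% in mouse 1082 and 8.02% in mouse 1157. Under the epithelial mask the same mice gave 6.42%, 3.77%, 5.53% and 6.24%. In the B cell segments they gave 2.19%, 1.84%, 2.54% and 1.73%. In each of the 4 mice the T cell share was the highest and the B cell share the lowest, and mouse 1044 was the lowest of the 4 under both the epithelial and the T cell mask. The B cell shares overlapped with neither of the other classes.

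The control shares are given as a description, since the control levels were fixed by the selection. Control cortical epithelium held 4.81% ± 0.87 (n = 4, 3.72% to 5.78%) and control cortical T cells 5.25% ± 0.63 (n = 4, 4.65% to 6.08%). Medullary epithelium held 1.77% ± 0.28 (n = 3) and medullary T cells 1.93% ± 0.59 (n = 3). Control B cells were at 2.11% ± 0.37 (n = 4), with 1.83% to 2.64%. All thymoma epithelium and T cell libraries lay above every medullary library. Thymoma T cells of 3 mice and thymoma epithelium of mice 1042 and 1157 also lay above the highest control library, at 6.08%. The cortical and thymoma ranges overlapped otherwise, and thymoma B cells lay within the range spanned by medulla and control B cells.

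**Figure D1:**
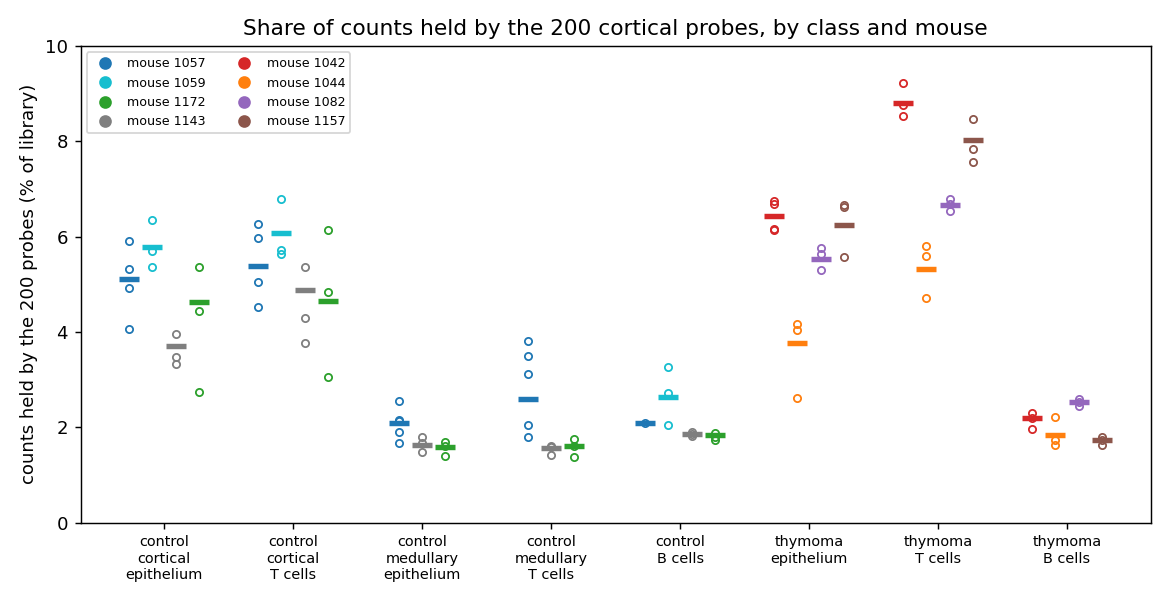
Percentage of all counts held by the 200 probes (y axis, from 0) in each class (x axis); open circles are segments and bars the summed library of each mouse. Thymoma T cells reach the highest shares, 5.32% to 8.80% by mouse, and thymoma B cells lie at 1.73% to 2.54%, beside control medulla and control B cells.

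A few probes carried much of the share. The 10 most abundant members of each class held 45.4% of the members' counts in thymoma T cells and 45.2% in thymoma epithelium, against 29.3% in thymoma B cells and 37.9% in control cortical T cells. Without 1 fixed set, the 10 most abundant in thymoma T cells, the other 190 held 4.07% of pooled thymoma T cell counts, 3.16% of thymoma epithelium and 1.43% of thymoma B cells. The order of the thymoma classes was the same. As that set was fixed by thymoma T cell levels, the values beside control are a description: for thymoma epithelium the 190 came to 3.16% against 3.22% in control cortical epithelium, and for thymoma T cells to 4.07% against 3.32% in control cortical T cells.

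Within thymoma, epithelium and T cell segments were compared first, as no thymoma library served in the selection. The probes that in the control cortex differed by less than 0.3 between the masks were mostly lower under the epithelial mask of thymoma: 170 of the 200 were called lower in epithelium, 1 was called higher and 29 were not called. The median log2 fold change was -0.36, the middle 50% of probes lay between -0.43 and -0.26, and the range was -0.74 to 0.29. The test was edgeR's quasi-likelihood test on 4 mice with the mouse as a block and a Benjamini-Hochberg adjusted p below 0.05 over all 20175 probes. Over all probes 11% were called lower and 14.2% higher, with a median of -0.03, and in the upper part by level 17.0% and 20.2%. Among the members 85.5% were called, nearly all in 1 direction. Upper-quartile scaling turned the balance over the panel, from 2865 higher and 2227 lower to 2430 higher and 3859 lower, while 183 members were then lower and 1 higher. Without the mouse block, which leaves differences between mice in the error, edgeR called 0 members, with 73 at an unadjusted p below 0.05. That fit called 0.0644% of all probes, against 25.2% with the block.

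Each mouse showed the same side. The T cell library was higher than the epithelial one for 190 probes in mouse 1042, 197 in mouse 1044, 193 in mouse 1082 and 194 in mouse 1157. Over all probes the percentages were 49.1%, 56.2%, 61.3% and 65.5%. Median differences of the members, epithelium minus T cells, were -0.42, -0.43, -0.28 and -0.36 in the 4 mice. A total of 185 probes (92.5%) were lower in epithelium in all 4 mice, against 27% of the panel.

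The regions where both masks were collected gave the same order at a finer scale. In all 12 such thymoma regions the share was higher under the T cell mask, by a ratio of 1.18 to 1.80 with a median of 1.35. The largest ratio came from a region of mouse 1044, with 2.61% under the epithelial and 4.70% under the T cell mask, which were also the lowest shares of their classes. Regions of 1 mouse are not independent, and the ratio of summed libraries was 1.37, 1.41, 1.20 and 1.29 in mice 1042, 1044, 1082 and 1157. The T cell libraries were deeper in mice 1042, 1044 and 1157, at 16939891, 10700536 and 17653470 counts against 12247608, 5262278 and 11366626 in epithelium. In mouse 1082 the epithelial library was the deeper, at 13328944 counts against 12745907, and the T cell share was still the higher.

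**Figure D2:**
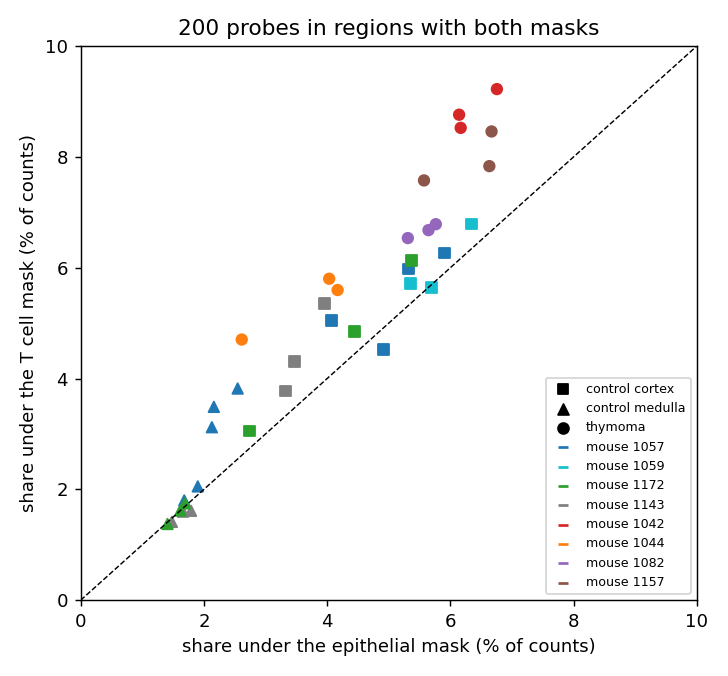
Share of counts held by the 200 probes under the T cell mask (y axis, %) against the epithelial mask (x axis, %) of the same region, coloured by mouse, with the line of equal shares dashed. All 12 thymoma regions lie above the line, as do 11 of 13 regions of control cortex and 7 of 11 of control medulla.

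In the control cortex the same ratio was 1.05 in mouse 1057, 1.05 in mouse 1059 and 1.00 in mouse 1172, and 1.32 in shallow mouse 1143. By regions, 11 of 13 had the higher share under the T cell mask, with ratios of 0.92 to 1.35 and a median of 1.11. The regions of mouse 1172 had 1.14, 1.11 and 1.09, each above the ratio of its summed libraries. These ratios were held near 1 by the selection, which capped the difference between the masks, so the contrast with thymoma is a description. Control medulla, whose mask difference was not capped, gave 1.24 in mouse 1057, 0.96 in mouse 1143 and 1.01 in mouse 1172. There 185 of the 200 probes were higher under the T cell mask in mouse 1057, but 96 in mouse 1143 and 102 in mouse 1172.

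Probes from either side of the control cortex were mostly on the T cell side in thymoma. Of the 68 probes with the higher pooled level in control cortical epithelium, 64 were higher under the T cell mask in thymoma, with a median epithelium minus T cells of -0.28. Of the other 132 probes, 132 were higher under the T cell mask, with a median of -0.38. The difference was present in both parts of the ranking, at -0.39 for ranks 1 to 100 and -0.30 for ranks 101 to 200.

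A mirrored list was drawn for comparison: the 200 probes selected in the same way for medulla instead of cortex. Its probes had lower levels, so it is no matched background. In thymoma, 46, 63, 66 and 52 of these 200 were higher under the T cell mask in mice 1042, 1044, 1082 and 1157. Of the cortical probes 190 to 197 were. In control cortex the mirrored list had 79, 87, 109 and 101 in mice 1057, 1059, 1143 and 1172. In control medulla, where its selection capped the mask difference, it had 56, 99 and 78 in mice 1057, 1143 and 1172.

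B cell segments had the lowest levels of the cortical probes within thymoma. Against thymoma T cells, 191 of 200 were called lower and 1 higher, with a median log2 fold change of -1.47 and a minimum of -3.68. Over all probes 12.8% were called lower, and 22.2% of the upper part by level. Against thymoma epithelium, 183 were called lower and 2 higher, with a median of -1.17, where 18.1% of all probes and 29.9% of the upper part were lower. The B cell segments lay in other regions than the epithelium and T cell segments, so mask and place within the tissue cannot be told apart.

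Taking the 3 thymoma classes as an order, B cells below epithelium below T cells held in each of the 4 mice for 167 probes, or 83.5% of the members. The same order held in each mouse for 4.14% of all probes. The step from T cells to B cells was larger for the probes with the larger zone difference in control, -1.87 at the median for ranks 1 to 100 against -1.17 for ranks 101 to 200. A total of 192 probes were lower in B cells than in T cells in all 4 mice, and 180 lower in B cells than in epithelium.

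**Figure D3:**
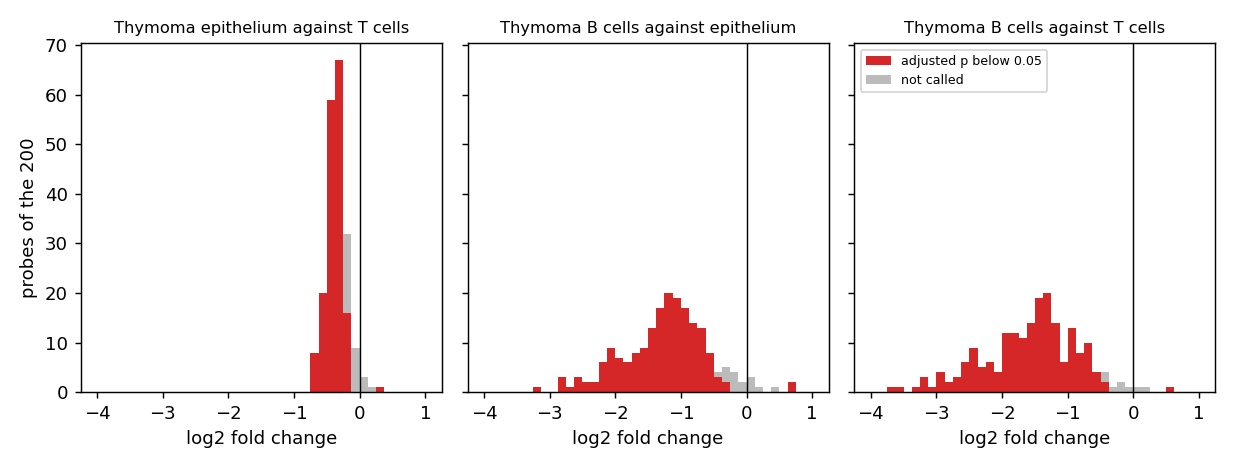
Number of the 200 probes (y axis) by log2 fold change (x axis) in the 3 comparisons within thymoma, coloured by whether the adjusted p was below 0.05. The epithelium against T cell changes lie in a narrow band around -0.36, and those of B cells spread to -3.68.

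RTS0075116, the first probe by rank, had the largest fall of the 167 that passed all conditions for naming. Under the epithelial mask it stood at 178 CPM in mouse 1042, 317 in mouse 1044, 477 in mouse 1082 and 442 in mouse 1157. Under the T cell mask of the same mice it stood at 289, 630, 772 and 698 CPM. Each mouse was thus higher under the T cell mask, although the classes overlapped because mouse 1042 was low under both. The log2 fold change of epithelium against T cells was -0.74 (SE 0.085, edgeR adjusted p = 1.96e-06). In thymoma B cells it lay at 76.4, 55.9, 56.3 and 30.9 CPM in the same order of mice. Against T cells it fell by 3.53 on the log2 scale (SE 0.325, edgeR adjusted p = 3.69e-06). The B cell values did not overlap with the other classes.

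In control cortex RTS0075116 varied widely between mice. Cortical epithelium had 650 CPM in mouse 1057, 870 in mouse 1059, 373 in mouse 1172 and 67.3 in mouse 1143. Cortical T cells had 729, 1058, 328 and 70.9 CPM. The last mouse rests on 7 counts in epithelium and 62 in T cells, and medulla lay between 19.5 and 147 CPM in 3 mice. Thymoma T cells, at 289 to 772 CPM, thus fell inside the control cortical range, as did thymoma epithelium, although mouse 1042 lay below all control cortical values except those of mouse 1143.

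RTS0076005, rank 56, had the next largest fall. It stood at 443, 561, 818 and 750 CPM under the epithelial mask of mice 1042, 1044, 1082 and 1157, and at 707, 1143, 1233 and 1201 CPM under the T cell mask. The log2 fold change was -0.72 (SE 0.097, edgeR adjusted p = 1.30e-05). As for RTS0075116, mouse 1042 was the lowest under both masks and each mouse was higher under the T cell mask. B cell segments of thymoma had 191 to 390 CPM, below every library of the other thymoma classes.

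No probe met the same conditions in the other direction. RTS0069993, rank 96, was the 1 probe called higher under the epithelial mask and was picked after its values were seen. It had 229, 189, 213 and 226 CPM in epithelium of mice 1042, 1044, 1082 and 1157 and 167, 190, 176 and 178 CPM in T cells. Epithelium was higher in 3 mice and about 1 CPM lower in mouse 1044. The log2 fold change was 0.29 (SE 0.075, edgeR adjusted p = 0.00663). In B cells it fell to 44.3 to 52.6 CPM, so it shared with most members the low level in B cells.

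RTS0063935, rank 105, was the 1 probe called higher in thymoma B cells than in thymoma T cells, and was also picked after its values were seen. It had 120, 141, 107 and 249 CPM in B cells and 79.6, 72.8, 109 and 117 CPM in T cells of mice 1042, 1044, 1082 and 1157. The classes overlapped, since mouse 1082 had about the same level in both. The log2 fold change was 0.56 (SE 0.168, edgeR adjusted p = 0.0308), and the call was lost without mouse 1044 (adjusted p = 0.247), without mouse 1157 (adjusted p = 0.198) or without the mouse block (adjusted p = 0.129). Against thymoma epithelium RTS0063935 was 0.65 higher (edgeR adjusted p = 0.00647). The second probe called higher in B cells than in epithelium had rank 86.

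**Figure D4:**
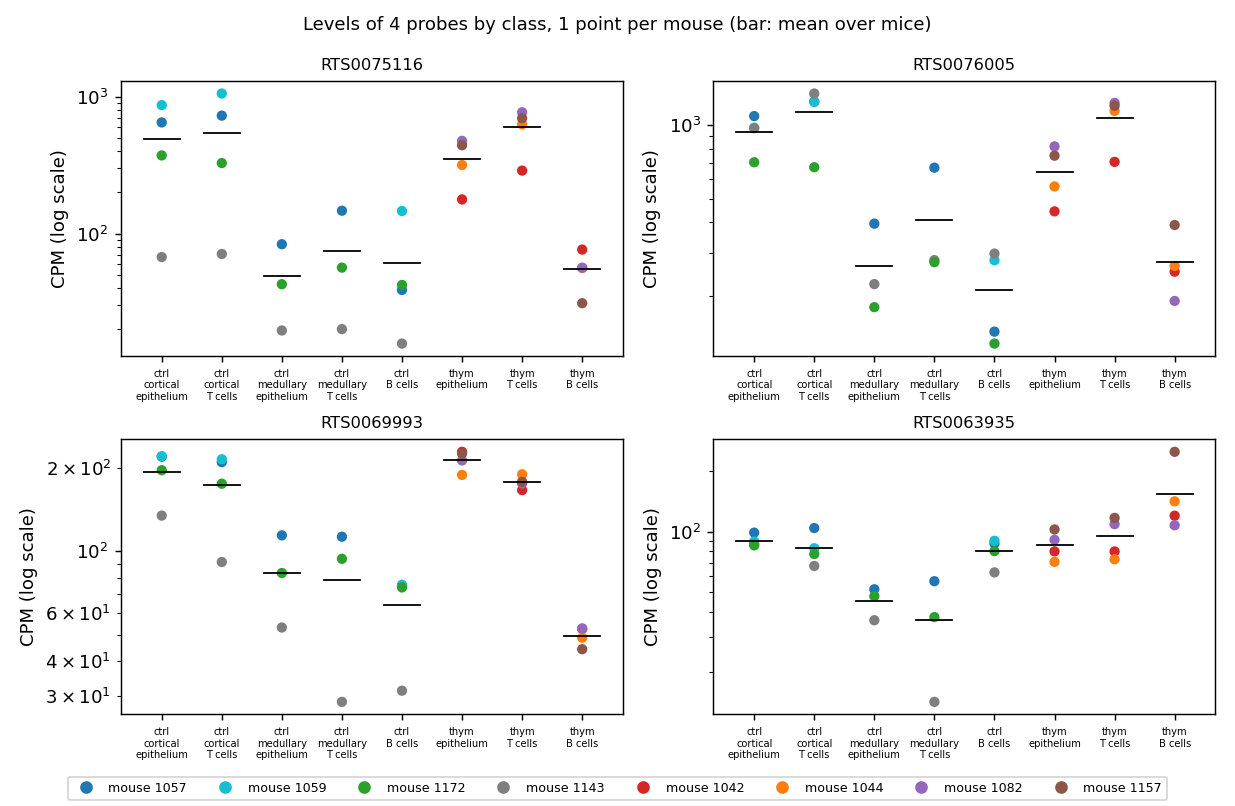
CPM on a log axis (y) of 4 of the 200 probes in each class (x), with 1 point per mouse and a bar at the mean over mice. RTS0075116 and RTS0076005 are lower under the epithelial than the T cell mask in each thymoma mouse, RTS0069993 is higher in 3 of 4, and RTS0063935 is highest in thymoma B cells.

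Against control cortex, thymoma levels were compared next, with control libraries that also served in the selection, so the counts are descriptions. In epithelium, 0 probes were called higher and 2 lower by edgeR, ranks 62 and 130, at log2 fold changes of -0.95 and -0.72. Over all probes 3.43% were called in either direction, and of the upper part 4.14% higher and 0.615% lower. The members' median was 0.11, and -0.02 with upper-quartile scaling, beside 0.13 in the upper part. An unadjusted p below 0.05 was found for 25 of the 200 members. That is a smaller share than in all probes (25.6%) or in the upper part (26.2%). The count of 2 was 0 without mouse 1042, 1057, 1059 or 1172, 1 without mouse 1044 or 1157, and 4 without mouse 1143. Over all probes 0.248% to 0.778% were called in those fits with a count of 0. The share of all probes was 3.43% without mouse 1044, 0.967% without mouse 1157 and 9.47% without mouse 1143. In T cells edgeR called 0 of the 200, where 0.00496% of all probes were called. The median was 0.46 and 174 members lay above 0, beside a median of 0.12 and 62.1% above 0 in the upper part. At an unadjusted p below 0.05 there were 46 members, against 22.9% of all probes and 19.5% of the upper part. The members thus passed about as often as the panel. DESeq2 called 11 of them, 10 higher and 1 lower, where it called 5.52% of all probes. Without mouse 1143 edgeR called 17, 16 higher and 1 lower, where it called 15% of all probes. Taken in either direction, neither count stands above its background. By direction, all probes had 773 higher and 341 lower with DESeq2, and 1355 higher and 1679 lower without mouse 1143. The median without mouse 1143 was 0.36.

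Against control medulla the values were far apart. In epithelium 167 of 200 were called higher and 0 lower, with a median log2 fold change of 1.49, where 7.28% of all probes and 14.1% of the upper part were called higher. In T cells 156 were higher and 0 lower, with a median of 1.58, where 3.92% of all probes and 7.46% of the upper part were higher. The selection asked for low medullary levels, so nothing is read from these counts. They also rest on 3 control mice. Without mouse 1172 the epithelium count was 3, without mouse 1157 it was 42 and without mouse 1042 it was 70. Calls over all probes, in either direction, fell too, from 10.1% to 0.149%, 0.783% and 1.44% in the same order. The T cell count was 0 without mouse 1082, 1157 or 1172, with 186 to 194 at an unadjusted p below 0.05. It was 1 without mouse 1042 and 45 without mouse 1044. Over all probes 5.17% were called in the main T cell fit, and 0% to 0.525% without 1 of these mice.

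Set on the scale of the pooled control zones, 97 of the 200 probes in thymoma epithelium lay at or above control cortical epithelium, 103 between cortex and medulla and 0 at or below medulla. In thymoma T cells 143 lay at or above control cortical T cells, 57 between and 0 at or below medulla. By mouse, epithelium had 90 at or above cortex in mouse 1042, 41 in mouse 1044, 110 in mouse 1082 and 106 in mouse 1157. T cells had 127, 108, 162 and 163. Mouse 1044 was the lowest on both counts. Thymoma B cells showed the reverse, with 7 at or above control cortical T cells, 58 between and 135 at or below medullary T cells. Control B cells had 1, 121 and 78, but the selection itself kept them from exceeding the higher cortical value. The pooled control levels of this scale also chose the members, and no share over all probes was taken. The placements are therefore descriptions. The spread of probe levels within a library also moved with the group: the interquartile range of log2 levels was 1.08 to 1.42 in thymoma epithelium and T cells and 0.76 to 1.14 in control cortex and medulla outside mouse 1143, so the groups overlapped. Its part in these placements was not tested.

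**Figure D5:**
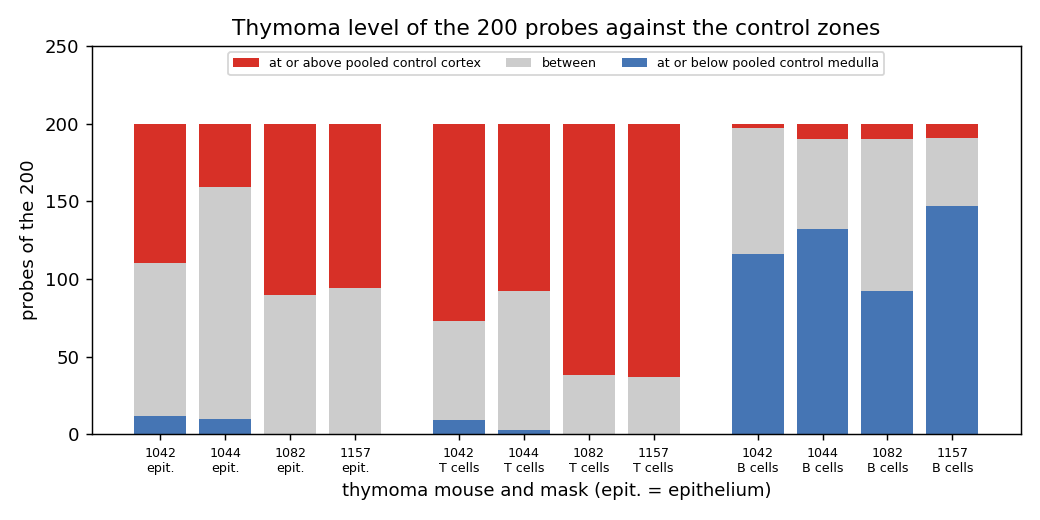
Number of the 200 probes (y axis) in each thymoma mouse and mask (x axis) at or above the pooled control cortex, between, or at or below the pooled control medulla of the same mask, with control T cells as the scale for B cells. Mouse 1044 has the fewest at or above cortex, 41 in epithelium and 108 in T cells. Most B cell values lie at or below medulla in 3 of 4 mice. The control levels used as the scale also served in the selection.

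To keep the choosing and the reading libraries apart, probes were chosen in control mice of 1 genotype and thymoma was then read against the other control genotype, as differences of log2(CPM + 1). Chosen in Gtf2ifl/fl mice and read against Gtf2ifl/wt mice, thymoma epithelium minus cortical epithelium had a median of 0.11 with 120 of 200 positive, and thymoma T cells minus cortical T cells 0.48 with 179 positive. Chosen in Gtf2ifl/wt and read against Gtf2ifl/fl, the medians were 0.03 with 106 positive and 0.25 with 138 positive. All probes had medians of -0.17 to -0.31 in these 4 readings, which low probes weigh on most, and the upper part had medians of -0.03 to -0.05 with 42.9% to 46.4% positive. Against medulla the medians were 1.08 and 1.38 in the first direction and 0.93 and 1.00 in the second. Thymoma T cells were above control cortical T cells for most of the probes in both directions, by an amount that depended on which control mice were read, and genotype and slide coincide in these controls.

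Thymoma B cells gave no call against control B cells. By edgeR 0 of the 200 were called, where 0.00496% of all probes were called, with a median of -0.07 (0.05 after quantile normalization). An unadjusted p below 0.05 was found for 31 of the 200. That is a larger share than in all probes (9.08%) or in the upper part (9.71%). DESeq2 also called 0. Read against Gtf2ifl/fl control B cells with probes chosen in the Gtf2ifl/wt mice, the median was -0.36 with 30 of 200 positive, and in the other direction -0.01 with 100 positive. All probes had medians of -0.02 (46.3% positive) and -0.15 (30.9% positive) in these readings, and the upper part -0.03 (45.2%) and -0.04 (44.6%). The members thus lay below both backgrounds in the first reading and slightly above them in the second. For the 200 by edgeR, the median was -0.24 with only Gtf2ifl/fl controls and 0.25 with only Gtf2ifl/wt controls. Both size and direction therefore differed with the control mice read.

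Among the thymoma mice the cortical probes had a wider median range than all probes. Over the 4 mice it was 0.53 in epithelium, 0.54 in T cells and 0.53 in B cells, on the log2 scale, against 0.41, 0.41 and 0.34 for all probes. No range was taken for the upper part, and the members are abundant, so the part of abundance in this difference was not tested. Mouse 1044 had the lowest level of the 4 for 116 of the 200 probes in epithelium and 97 in T cells, where it was the lowest for 18.5% and 14.8% of all probes. In B cells mouse 1157 was the lowest for 118 probes, against 20.8% of all, and mouse 1082 the highest for 99, against 17.0%. The mouse that was low in epithelium and T cells was thus not the one that was low in B cells. Mice 1042 and 1044 shared a slide, as did 1082 and 1157.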

How the data were processed

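Each segment has 1 deposited file of raw probe counts, written by GeoMx_NGS_Pipeline 2.0.0 in DCC format 0.02, per the file headers. Alignment details are not given in the sources used here. Unlisted probes were set to 0. For 19 of the 95 files the count column has no usable name, and it was read the same way. The authors applied no normalization or background correction that the headers record.

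The members, lists and tests were chosen with earlier results of these data known. Segment counts were summed per mouse and class, since the mouse is the replicate. Probes kept by filterByExpr were scaled by TMM and compared with edgeR (version 4.0.16, under R 4.3.3) by its quasi-likelihood method. The threshold was an adjusted p below 0.05 (Benjamini-Hochberg, over all probes tested). Only the compared classes entered a fit. Comparisons within thymoma had the mouse as a block, because per the labels the classes come from the same animals. Deviations from class means correlated within a mouse by 0.64 to 0.82 for epithelium and T cells, and by -0.01 to 0.64 where B cells entered. Standard errors are the log2 fold change divided by the root of the F statistic. The precision of a share rests on the depths given above.

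The 4 IDs allowed without gene names were to be the 2 largest rises and 2 largest falls in thymoma epithelium against T cells, among members with an adjusted p below 0.05, a mean level above the median and the same sign in all 4 mice. There were 0 such rises. The exceptions are named as such. Alternatives were DESeq2 1.42.0, upper-quartile scaling, quantile normalization with limma 3.58.1, other filters, other member lists, 1 control genotype and leaving out each mouse.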

Additional observations from a re-analysis of the deposited data

Results flagged for a closer look

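Of 33 groups examined for a value far from the others, 4 held one, and chance gives about 1 in 20. Among the 33, 1 group was the 10 control B cell segments, and the rest were of 4 mice each. In summed libraries of control cortex, the ratio of the members' share under the T cell mask to that under the epithelial mask was 1.32 in mouse 1143. The other controls had 1.00 to 1.05, although a single region of mouse 1057 reached 1.24. RTS0069993 had 31.3 CPM in control B cells of mouse 1143, on 2 counts, against 74.0 to 75.7 CPM in the others. RTS0076005 had 672 CPM in control cortical T cells of mouse 1172, against 1247 to 1347 CPM in the other controls. The same probe, RTS0076005, had 707 CPM in thymoma T cells of mouse 1042, against 1143 to 1233 CPM in the other thymoma mice.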

How the results depend on the processing

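Within thymoma the direction of the counts of called members was the same under each alternative that made calls. Epithelium against T cells gave 137 to 165 calls without single mice. With the 100 highest-ranked probes only, the counts were 95 for epithelium against T cells, 97 for B cells against T cells and 95 for B cells against epithelium, as fewer probes were read. Mouse is a block in these fits because the classes come from the same animals. Without the replicate block the count was 0 for epithelium against T cells, where 0.0644% of all probes were called. For B cells it changed by under 1.5 times.

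Comparisons with control moved more, and the cause was not tested. For epithelium against control cortex, with 2 calls, DESeq2 gave 5, upper-quartile scaling 7 and quantile normalization 0. Control mice weighted alike gave 1, the 100-probe list 1, either control genotype alone 0, and leaving out single mice 0 to 4. Over all probes DESeq2 called 4.13%, upper-quartile scaling 6.07% and quantile normalization 0.134%. Without single mice 0.248% to 9.47% of all probes were called, against 3.43% in the main fit. For epithelium against control medulla, 167 became 47 with quantile normalization, 88 with the 100-probe list, 44 with Gtf2ifl/fl controls and 3 to 189 without single mice. For T cells against control cortex, 0 became 11 with DESeq2, which called 5.52% of all probes, and 0 to 17 without single mice, the 17 beside 15% of all probes. For T cells against control medulla, 156 became 45 with quantile normalization, 79 with the 100-probe list and 0 to 189 without single mice. Over all probes 0.704% were called with quantile normalization and 0% to 14.8% without single mice, against 5.17% in the main fit. With Gtf2ifl/fl controls the members' median log2 fold change was 1.27. Gtf2ifl/fl medulla is 1 mouse. Upper-quartile scaling shifted the median of all probes to -0.31 in both medullary comparisons, -0.18 and -0.19 against cortex, and 0.12 and 0.18 for B cells against T cells and epithelium of thymoma.

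With the 100-probe list the held-out zone differences were 1.28, 1.10 and 1.31 in epithelium of mice 1057, 1143 and 1172, and 1.02, 1.33 and 1.23 in T cells. Of 80 values of named probes under alternatives, 74 were called or not called as in the main fit, 6 lost their call and 0 reversed. The 74 include values of RTS0063935 in epithelium against T cells, which the main fit did not call (edgeR adjusted p = 0.208). Depth limits mouse 1143 most, in which as few as 60 of the 200 probes had a count in a segment.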
